A study of Mus musculus with 13 samples.

Results

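Small nucleolar RNAs were examined in S1 proximal tubule segments of mouse kidney across control, LPS and LPS/LPS arrays. The set held every gene whose single symbol begins with Snord, Snora or Scarna followed by a digit, with 1 probe set kept per symbol, the one with the highest mean over all arrays. This gave 78 of the 22180 genes tested: 47 Snord, 26 Snora and 5 Scarna genes. A further 46 probe sets that carry such a symbol together with other symbols were left out.

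Small nucleolar RNAs guide enzymes to chosen bases of other RNAs. Box C/D RNAs (Snord) direct ribose methylation and H/ACA RNAs (Snora) direct pseudouridylation, chiefly of ribosomal RNA, while small Cajal body RNAs (Scarna) guide the same changes on spliceosomal RNAs. A few members instead take part in cleavage of the ribosomal RNA precursor. In mammals most are cut out of introns of host genes, many of which encode ribosomal proteins or are noncoding RNAs known mainly as hosts, so that host and guide come from 1 transcript but are processed and degraded separately.

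The animals were male C57BL/6J mice. The 4 control arrays came from mice given saline vehicle, the 4 LPS arrays from mice given 5 mg/kg lipopolysaccharide (serotype O111:B4, an endotoxin of the bacterial outer membrane) intraperitoneally and examined 24 h later, and the 5 LPS/LPS arrays from mice preconditioned with 0.25 mg/kg and given the 5 mg/kg challenge 24 h after it. For the LPS/LPS arrays the examination was likewise 24 h after the challenge, and no time was given for the control arrays. The values are log2 expression after RMA, and a difference of 1 is a doubling. The labels do not say that each array is a separate animal or how the segments were isolated, so each p-value reflects spread among arrays that may be technical replicates.

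Of 8 markers of S1 and S2 tubule, Slc34a1, Lrp2, Slc22a6 and Slc4a4 lay above the background reference defined below and the other 4 did not. The mean of the 8 ranged from 5.27 to 6.10 in control, 4.62 to 6.53 in LPS and 4.37 to 5.23 in LPS/LPS arrays, so the preconditioned arrays lay below all controls. Of the neutrophil and endothelial markers, 0 of 5 and 0 of 5 lay above the reference, against 1 of 6 for macrophages and 1 of 4 for lymphocytes. The mean of 4 thick limb and distal markers reached 6.71 in LPS array 3, against 4.72 at most in control and 4.50 at most in LPS/LPS arrays. LPS array 4 and LPS/LPS array 5 stood apart in the median of the olfactory receptor genes, at 3.04 and 3.23 against 2.50 to 2.77 in the other 11 arrays. The part these differences play in the results below was not tested, and in such bulk samples fewer cells of a type and less RNA per cell cannot be told apart.

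Signal above background was frequent in the set. The reference was the 95th percentile of the means of 1105 olfactory receptor genes, which are largely silent outside the olfactory epithelium, and lay at 4.77. By this mark 29 of 78 small nucleolar RNAs (37.2%) had a mean above the reference, against 2207 of 22180 genes (9.95%). Of the 472 microRNA genes, also a family of short RNAs, 93 did (19.7%). By class, 14 of 26 Snora genes (53.8%) and 3 of 5 Scarna genes passed, as did 12 of 47 Snord genes (25.5%). Signals of different probe sets do not rank the amounts of their RNAs, since probes differ in affinity.

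The probe sets with the highest signal were those of Snord17, at a mean of 11.45, Snord89, at 10.89, Snora33, at 10.39, and Snora44, at 9.53. Snord17 lies in Snx5, a sorting nexin gene, Snora33 in the ribosomal protein gene Rps12, and Snora44 in the noncoding host Snhg12. Snord23 (7.34, within Nop53), Snord8 (6.98, within Chd8) and Snord47 (6.81, within Gas5) followed among the box C/D genes. Among the H/ACA genes Snora34 (8.36), Snora21 (7.55) and Snora62 (7.27) came next. The Scarna genes ran from Scarna2, at 7.63, over Scarna17 (5.06), Scarna6 (4.85) and Scarna10 (3.93) to Scarna8, at 3.15.

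**Figure D1:**
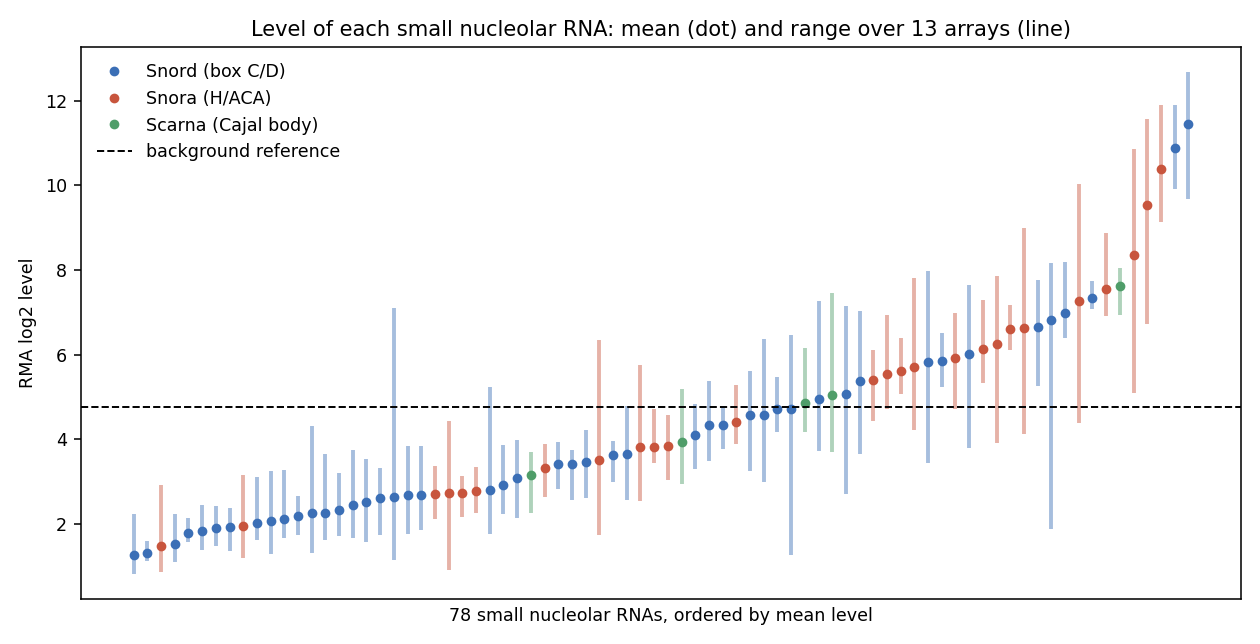
RMA log2 level of each of the 78 small nucleolar RNAs, ordered by mean; dots are means, lines the range over 13 arrays, colours the 3 classes and the dashed line the background reference of 4.77. The line is passed by 14 of 26 Snora and 12 of 47 Snord genes, and many members span several log2 units between arrays.

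Arrays of 1 group disagreed more on these RNAs than on most genes. The median within-group SD was 0.50 over the 78 members and 0.28 over all genes. Above the background reference the medians were 0.85 and 0.33. The SD exceeded 1 in 16 of 78 members (20.5%) and in 1.41% of all genes. The 472 microRNA genes lay between. Their median SD was 0.41, or 0.55 above the reference, and the SD exceeded 1 in 4.45% of them. Snora62 had the largest, 2.13, with control arrays at 8.27, 9.75, 4.85 and 4.44. Its control values thus fell into a high and a low pair within a single group. Snord23, with an SD of 0.21, and Scarna2, with 0.22, were among the steadiest, and Snord23 kept between 7.08 and 7.73 on all 13 arrays.

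A single dose of LPS left no small nucleolar RNA past the threshold. In this comparison limma called 0 of 78 members and 0 of 22180 genes at a Benjamini-Hochberg adjusted p under 0.05 (0% of genes). At an unadjusted p under 0.05, 6 members were higher (3.49% of all genes were) and 0 were lower (2.95% of all genes were). The 6 were Snord19, Snora69, Snord55, Snord89, Snord8 and Snord49b, with differences from 0.46 to 1.76. In a fit of genes above the background reference alone, 2 of 29 members were higher at that level, against 5.53% of those genes. None was lower, against 2.58% of those genes. The groups did not overlap for Snord19, Snord47 and Snord89, all higher, where 1.55% of all genes separated in that direction, nor for Snora41, lower, where 1.6% did.

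Snord89, which lies in no annotated host gene, had the highest signal of the 6. Its control arrays read 10.38, 10.92, 10.69 and 10.52. The LPS arrays gave 11.41, 11.52, 11.19 and 11.32, and the LPS/LPS arrays 11.88, 10.53, 10.32, 9.92 and 10.95. The LPS values lay close together and above every control, while the LPS/LPS values reached both sides of them. The difference between LPS and control was 0.73 (SE 0.31, limma adjusted p = 0.725).

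After preconditioning, the contrast with control again gave no call among the members. limma called 0 of 78, against 2 of 22180 genes (0.00902%), 1 higher and 1 lower (0.00451% each). At an unadjusted p under 0.05, 0 members were higher (2.62% of all genes) and 4 were lower (2.07%), namely Scarna2, Snora30, Snora34 and Snord123. All 4 lay above the background reference, with differences of -0.47, -1.45, -1.61 and -1.80. In a fit of genes above the reference alone, 3 of 29 members were lower at that level, against 5.44% of those genes. None was higher, against 2.22% of those genes. No member separated the groups in either direction, where 0.839% of genes did so upward and 0.699% downward. The members with the lowest p among the higher ones were Snord35a (0.42), Snord65 (0.51), Snora20 (0.23), Snord37 (0.33), Snord35b (0.32) and Snord55 (0.18).

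Between LPS/LPS and LPS, 1 small nucleolar RNA passed the test: Snord19 fell. limma called 1 of 78 members, against 14 of 22180 genes (0.0631%), and all 14 were lower in LPS/LPS. At an unadjusted p under 0.05, 11 members were lower (14.1%, against 4.49% of all genes) and 2 were higher (2.56%, against 4.13%). The 11 were Snord19, Snora69, Snora34, Scarna2, Snora30, Snord49b, Snora68, Snord123, Snord82, Snora31 and Snord89, and the 2 were Snord49a and Snord52. Bright genes as a whole were also more often lower than all genes. In a fit of genes above the background reference alone, 6 of 29 members were lower at that level, against 11.3% of those genes. None was higher, against 3.13% of those genes. Groups did not overlap for 2 members that were lower, Snord19 and Snora69 (1.3% of all genes), and for 0 that were higher (1.1% of all genes). Without LPS array 4 and LPS/LPS array 5, 11 members were lower and 2 higher at that level, against 3.41% and 3.84% of all genes, and 0 members passed the adjusted threshold. Leaving out LPS/LPS array 5 alone gave 17 lower and 4 higher, against 4.14% and 5.48% of all genes. These contrasts share their LPS arrays with the contrast of LPS and control, so a high LPS group moves both.

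Snord19, a box C/D RNA from an intron of Gnl3, which encodes the nucleolar GTPase nucleostemin, read 1.67, 1.56, 1.94 and 1.62 in control arrays. In LPS arrays it read 2.93, 3.29, 4.31 and 3.28. The LPS/LPS arrays gave 1.32, 1.68, 2.00, 1.99 and 1.71. Every LPS value lay above all values of the other groups, which overlapped each other. All 13 values lay below the background reference of 4.77. LPS/LPS minus LPS was -1.71 (SE 0.24, limma adjusted p = 0.0171), and the moderated F-test over the 3 groups gave an adjusted p of 0.0233. LPS minus control was 1.76 (SE 0.25, adjusted p = 0.0536), which missed the threshold, and LPS/LPS minus control was 0.04 (adjusted p = 0.993).

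The call on Snord19 depended on the setting. Over 24 tested settings its adjusted p for LPS/LPS against LPS ran from 0.00545 to 0.198, and 18 passed. It was lost without LPS/LPS array 2 (0.0638), without LPS/LPS array 5 (0.0532) and without LPS array 4 and LPS/LPS array 5 together (0.0983). Without LPS array 3, the highest for Snord19 and for the thick limb markers, the difference was -1.43 (adjusted p = 0.00983). For LPS against control, 6 of 24 settings passed, with adjusted p from 0.0112 to 0.272.

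**Figure D2:**
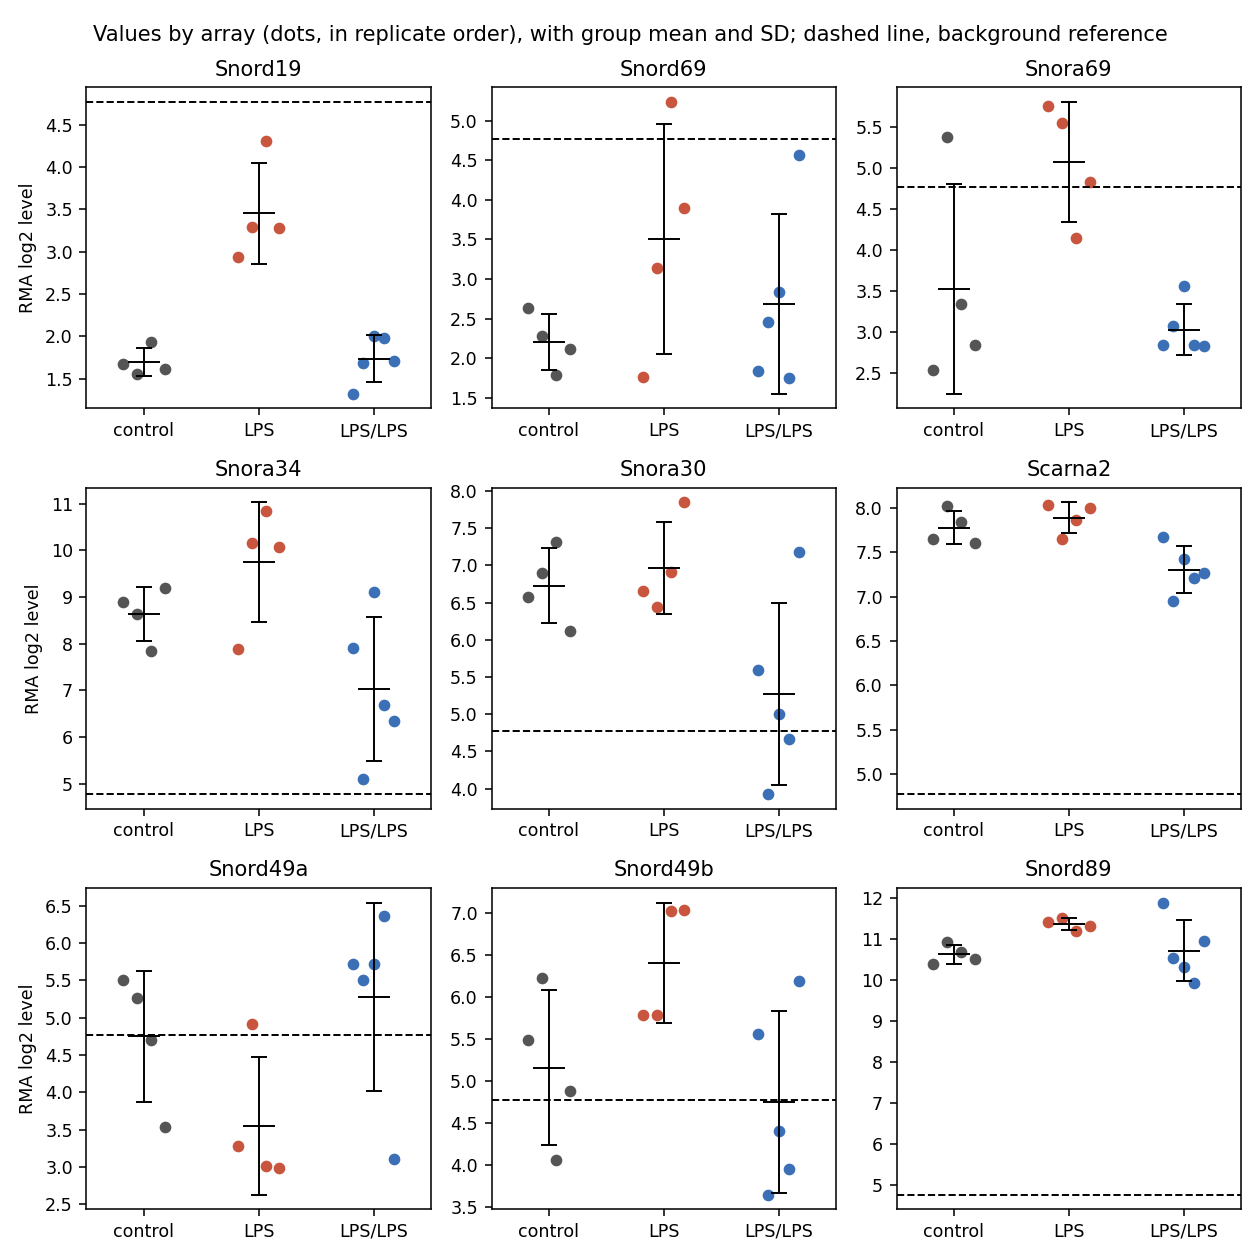
RMA log2 level on each array for 9 small nucleolar RNAs in 4 control, 4 LPS and 5 LPS/LPS arrays; dots are arrays, bars the group mean and SD, dashed lines the background reference of 4.77, and vertical scales differ between panels. Snord19 separates the LPS arrays from both other groups but stays below the reference, whereas the groups of Snora34, Snora30 and Scarna2 overlap.

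Snora69, an H/ACA RNA within the ribosomal protein gene Rpl39, followed in rank. Control arrays gave 2.53, 5.39, 3.34 and 2.84, LPS arrays 5.76, 5.55, 4.15 and 4.83, and LPS/LPS arrays 2.83, 3.07, 3.55, 2.83 and 2.83. All LPS values lay above all LPS/LPS values, while control array 2 lay among the LPS arrays. LPS/LPS minus LPS was -2.05 (SE 0.48, limma adjusted p = 0.177). The adjusted p ran from 0.041 to 0.491 over the settings and passed in 1 of 24, without control array 2.

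Snora34 had the largest difference of any member, with a wide spread. It is an H/ACA RNA of Kansl2, which encodes a subunit of a histone acetyltransferase complex. Control arrays read 8.90, 8.63, 7.84 and 9.19, LPS arrays 7.88, 10.17, 10.85 and 10.07, and LPS/LPS arrays 7.91, 5.09, 9.12, 6.68 and 6.34. LPS array 1 was the only LPS array inside the LPS/LPS range. LPS/LPS minus LPS was -2.72 (SE 0.71, adjusted p = 0.269), and LPS/LPS minus control was -1.61 (SE 0.71, adjusted p = 0.987).

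Snora30, within the chromatin remodeller gene Srcap, differed by -1.69 between LPS/LPS and LPS (SE 0.51, limma adjusted p = 0.358). Its LPS/LPS arrays read 5.59, 3.92, 5.00, 4.67 and 7.19. Array 5 lay within the LPS range of 6.45 to 7.85 and the other 4 LPS/LPS arrays lay below it. Against control the difference was -1.45, but 0.04 within the arrays of wide spread, those whose SD over all probe sets was at or above the median.

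Scarna2, which guides modification of a spliceosomal RNA and has no annotated host, varied little. Control arrays read 7.65, 8.01, 7.84 and 7.61, LPS arrays 8.04, 7.65, 7.87 and 8.0, and LPS/LPS arrays 7.67, 6.95, 7.42, 7.21 and 7.27. Only LPS/LPS array 1 reached the values of the other groups, overlapping the lowest of each. LPS/LPS minus LPS was -0.58 (SE 0.16, adjusted p = 0.291), and LPS/LPS minus control was -0.47 (SE 0.16, adjusted p = 0.987).

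Snord123, in the noncoding host Snhg18, had arrays of 1 group far apart. Control arrays read 6.87, 7.96, 7.39 and 3.45, LPS arrays 4.49, 7.40, 7.62 and 7.34, and LPS/LPS arrays 3.81, 4.43, 4.44, 4.80 and 5.62. Control array 4 and LPS array 1 lay with the LPS/LPS arrays, and the remaining 6 lay above them. The difference of LPS/LPS was -1.80 from control and -2.09 from LPS (limma adjusted p = 0.987 and 0.49). Over the settings, the difference from LPS ran from -2.83 to 0.07, and the latter came within the arrays of narrow spread, which hold only LPS array 1 of that group.

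By class, over all members with dim probe sets included, the median differences were larger for H/ACA than for box C/D RNAs. Among members above the background reference, those of both classes were alike in sign and size for LPS against control and for LPS/LPS against LPS. They were not alike in size for LPS/LPS against control. The median difference of LPS from control was 0.23 over the Snora genes, 0.17 over the Scarna genes, 0.00 over the Snord genes and -0.02 over all genes. With 1 array left out, the Snora median ran from 0.12 (without LPS array 4) to 0.36 (without control array 3) and the Scarna median from 0.046 (without LPS array 4) to 0.38 (without LPS array 2). In LPS/LPS against LPS, it was -0.26, -0.35, -0.06 and 0.05. The values for LPS/LPS against control were -0.16, -0.02, 0.04 and 0.03. The difference of LPS from control was positive for 21 of 26 Snora, 23 of 47 Snord and 4 of 5 Scarna genes, against 47.1% of all genes. For LPS/LPS against control the positive counts were 8 of 26, 26 of 47 and 2 of 5, against 55.8% of all genes. For LPS/LPS against LPS the positive counts were 6 of 26, 22 of 47 and 1 of 5, against 59.3% of all genes. Members of a class are not replicates, and the difference between classes was not tested.

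The median level of the 26 Snora genes was 5.43, 5.29, 5.31 and 4.57 in control arrays, 5.50, 5.37, 5.34 and 5.65 in LPS arrays, and 4.75, 4.17, 4.51, 4.73 and 5.09 in LPS/LPS arrays. Every LPS array lay above every LPS/LPS array, and control array 4 lay among the latter. Within arrays of narrow spread, of which 1 was an LPS array, the Snora median difference of LPS from control was -0.30, and within arrays of wide spread it was 0.44. For LPS/LPS against LPS it was -0.20 within wide and -0.23 within narrow arrays. With 1 array left out, it ran from -0.20 (without LPS array 4) to -0.41 (without LPS array 1), and the Scarna median of that contrast from -0.64 (without LPS array 2) to 0.02 (without LPS array 4).

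Restricting to the 29 members above the background reference gave median differences of 0.29 for LPS from control, -0.17 for LPS/LPS from control and -0.51 for LPS/LPS from LPS. Over the 12 such Snord genes the median was 0.38 for LPS from control and -0.52 for LPS/LPS from LPS. Over the 14 such Snora genes it was 0.31 and -0.51, against 0.00 and 0.01 over all genes above the reference. For LPS/LPS from control the median was -0.004 over these Snord genes and -0.19 over these Snora genes. The 472 microRNA genes, another family of short RNAs, had medians of -0.14, -0.01 and 0.12, opposite in sign to the Snora genes for the contrasts of LPS with control and of LPS/LPS with LPS.

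**Figure D3:**
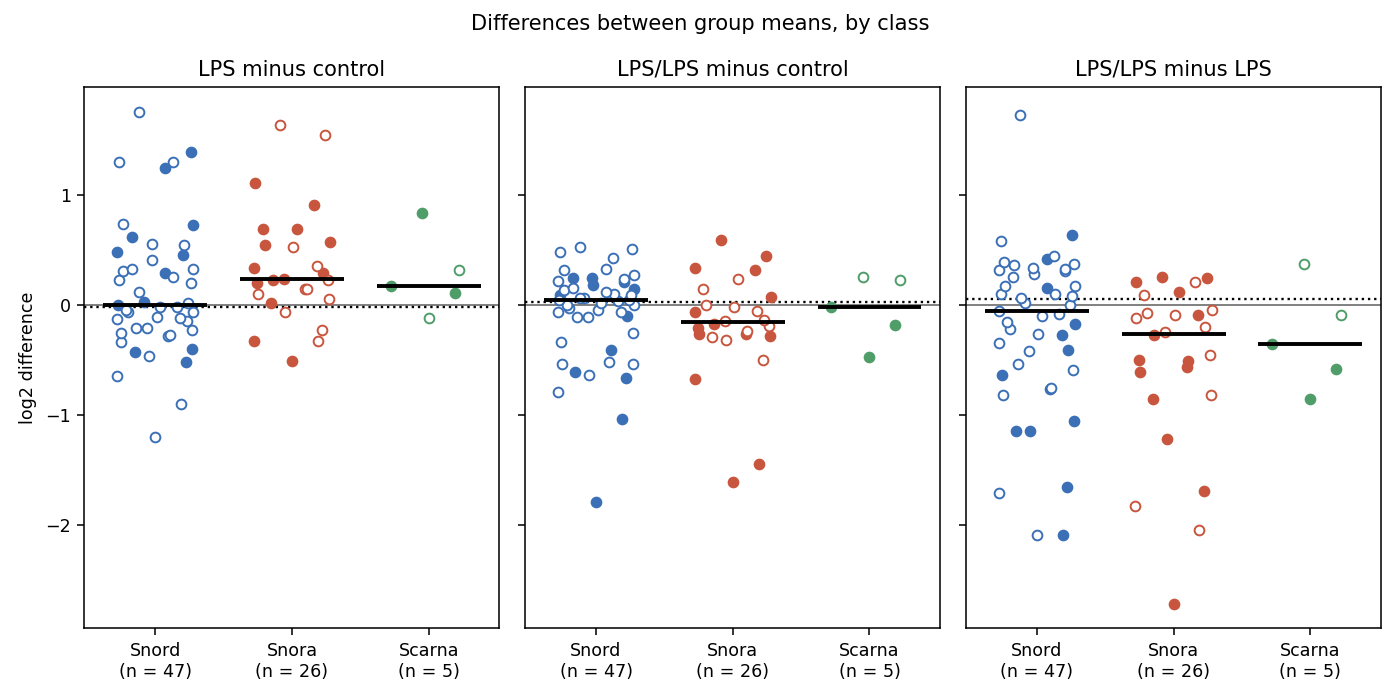
Log2 difference between group means for each small nucleolar RNA, by class and comparison; filled dots lie above the background reference, open dots below it, black bars are class medians and the dotted line is the median of all 22180 genes. The Snora median is 0.23 for LPS minus control and -0.26 for LPS/LPS minus LPS, with Snord medians of 0.00 and -0.06.

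Host genes were assigned where the span of a RefSeq gene contains the small nucleolar RNA. For 74 of 78 members there was one, and the host was measured for 63 members, giving 64 pairs. The 4 without were Scarna2, Snord118, Snord13 and Snord89; Snord118 acts in precursor cleavage and Snord13 in acetylation of small-subunit ribosomal RNA. Ribosomal protein genes hosted 19 members.

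Host and guide did not keep 1 direction. Their differences had the same sign in 31 of 64 pairs for LPS against control, 34 for LPS/LPS against control and 37 for LPS/LPS against LPS. Over pairs, Pearson's r was 0.06, -0.13 and -0.10, a description over 64 pairs measured on the same arrays, some of which share a host. In LPS/LPS against LPS, 11 pairs had a small nucleolar RNA differing by over 1, and in 8 of them the host differed by under 0.5. Most of all 64 pairs had a host differing by under 0.5 in that contrast, at a similar share. The count thus does not set these 11 pairs apart. Gnl3, host of Snord19, differed by 0.14, 0.13 and -0.01 in the 3 comparisons. Kansl2 differed by 0.73 between LPS/LPS and LPS, where its Snora34 differed by -2.72. Conversely Eef2, which encodes a translation elongation factor, differed by -2.22 while its Snord37 differed by 0.31.

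**Figure D4:**
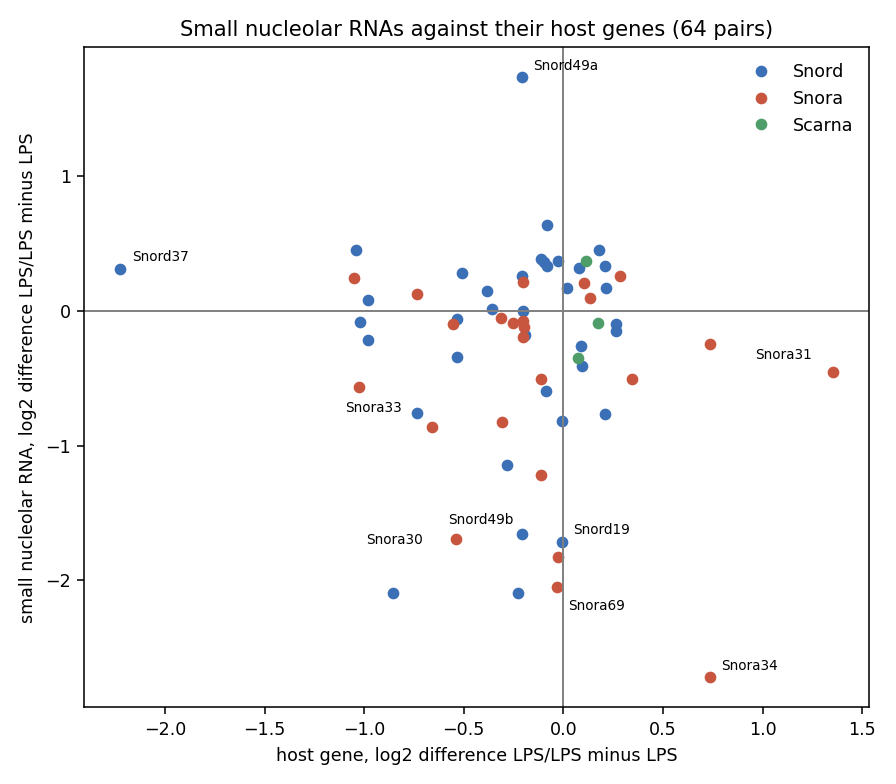
Log2 difference of LPS/LPS from LPS for 64 pairs of host gene (horizontal) and small nucleolar RNA (vertical), coloured by class. Snord19 and Snora69 lie far below 0 at hosts near 0, and the points follow no line (r = -0.10). Most hosts, those of Snord19 and Snora69 among them, have means below the background reference, where differences are compressed. So do Snord19, Snora69 and Snord37 themselves.

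Small nucleolar RNAs of 1 host were also set beside each other. Gnl3 holds Snord69 beside Snord19. Snord69 read 2.64, 2.29, 1.79 and 2.12 in control, 1.76, 3.13, 5.24 and 3.89 in LPS, and 1.84, 2.45, 2.83, 1.76 and 4.56 in LPS/LPS arrays. Unlike Snord19, its 3 groups overlapped, but the differences of both had the same signs. LPS minus control was 1.30 for Snord69 and 1.76 for Snord19, though LPS array 1 lay below every control array for Snord69. LPS/LPS minus LPS was -0.82 for Snord69 (SE 0.62, limma adjusted p = 0.739), against -1.71 for Snord19. Within the arrays of narrow spread that of Snord69 was 0.59. Both had means below the background reference.

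The noncoding gene 2410006H16Rik holds Snord49a, Snord49b and Snord65, and the first pair went in opposite directions. Snord49a gave 5.50, 5.27, 4.71 and 3.53 in control arrays, 3.29, 4.92, 3.01 and 2.99 in LPS arrays, and 5.72, 5.50, 5.72, 6.37 and 3.10 in LPS/LPS arrays. Snord49b gave 5.49, 6.23, 4.06 and 4.88 in control arrays, 5.79, 5.78, 7.02 and 7.04 in LPS arrays, and 5.57, 3.65, 4.40, 3.95 and 6.19 in LPS/LPS arrays. LPS/LPS array 5 lay with the LPS arrays for both, low for Snord49a and high for Snord49b. LPS/LPS minus LPS was 1.73 for Snord49a (SE 0.61, adjusted p = 0.449), -1.66 for Snord49b (SE 0.54, adjusted p = 0.414) and 0.26 for Snord65 (SE 0.29, adjusted p = 0.846). The host itself, with a mean of 4.68 just below the background reference, differed by -0.21.

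Snhg12, a noncoding host, holds Snora16a, Snora44, Snora61 and Snord99. LPS/LPS minus LPS lay between -0.20 and 0.21 for all 4, smaller than the within-group SD of each, and its sign turned between settings for all 4. Snora44 alone of these lay above the background reference, and its LPS arrays spread from 6.72 to 11.49.

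Many host genes of small nucleolar RNAs carry a pyrimidine tract at the start of transcription, a feature of genes of the translation machinery. The windows of the hosts of the called Snord19 and of the opposed Snord49a and Snord49b are shown from RefSeq, build GRCm38.p6, with 250 bases before the annotated start and 20 from it onward. Capitals mark a run of at least 7 pyrimidines (C or T, on the strand of the gene) within 20 bases on either side of the start. Gnl3 is at chr14:31019112-31019381 on the minus strand and 2410006H16Rik at chr11:62602627-62602896 on the plus strand.
Gnl3: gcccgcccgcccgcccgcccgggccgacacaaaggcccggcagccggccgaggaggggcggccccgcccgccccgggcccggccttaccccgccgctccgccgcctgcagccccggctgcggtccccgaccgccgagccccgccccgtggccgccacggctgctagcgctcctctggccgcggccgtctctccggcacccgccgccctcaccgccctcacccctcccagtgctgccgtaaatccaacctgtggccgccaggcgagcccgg
2410006H16Rik: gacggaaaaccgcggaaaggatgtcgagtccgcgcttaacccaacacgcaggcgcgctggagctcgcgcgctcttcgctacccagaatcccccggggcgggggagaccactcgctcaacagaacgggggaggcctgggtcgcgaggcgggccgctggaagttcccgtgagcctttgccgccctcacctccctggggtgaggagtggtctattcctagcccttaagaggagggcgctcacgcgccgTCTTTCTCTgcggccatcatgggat
The longest run near the start was 9 bases for 2410006H16Rik, spanning the start, and 3 for Gnl3. Among all host windows 16 of 54 (29.6%) held a run of 7, against 7986 of 32851 windows of all genes (24.3%). Without the ribosomal protein genes, 12 of 45 host windows (26.7%) held one.

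Of the proteins that bind and mature these RNAs, none passed limma's test in a design that called few genes at all. Over 6 lists, 38 genes were measured: core proteins of box C/D and H/ACA particles, assembly and transport factors, Cajal body proteins, processing and turnover enzymes, and factors of ribosomal RNA synthesis. In each comparison 0 of 38 passed in either direction, where 0%, 0.00902% and 0.0631% of all genes did, so that 0 calls is near the background. At an unadjusted p under 0.05 there were 1, 0 and 3, against 6.43%, 4.7% and 8.61% of all genes. Positive differences numbered 26, 22 and 14 of 38, against 47.1%, 55.8% and 59.3% of all genes. Only 4 of the 38 lay above the background reference, among them 1 of 4 H/ACA and 0 of 3 box C/D proteins. Small differences of the others may thus be compressed by background. Of the H/ACA proteins, Dkc1, the pseudouridine synthase, differed by -0.22 between LPS/LPS and LPS, Gar1 by -0.18, Nhp2 by -0.16 and Nop10 by -0.20. Of the box C/D proteins, Nop56, Nop58 and Snu13 differed by -0.10, 0.21 and 0.03. Npm1 and Ncl, abundant nucleolar proteins, differed by -0.72 and -0.73 (adjusted p = 0.449 and 0.492).

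Of the noncoding host genes 0 of 17 passed in each comparison, which is again near the background of 0%, 0.00902% and 0.0631%. At an unadjusted p under 0.05 there were 2, 2 and 5 of 17, against 6.43%, 4.7% and 8.61% of all genes. Zfas1, host of several box C/D RNAs, had the lowest p in the contrast of LPS with control, at a difference of 0.76, and differed by -0.59 between LPS/LPS and LPS. Other short noncoding RNAs, transcribed from genes of their own, gave 0 calls among 6, and 1, 1 and 3 of the 6 at an unadjusted p under 0.05. Rn7sk, a regulator of transcription elongation, differed by -1.16 between LPS/LPS and LPS (limma adjusted p = 0.128). Rny1, a Y RNA, differed by -1.98 in that contrast (adjusted p = 0.20) and by 1.62 between LPS and control (adjusted p = 0.562).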

How the data were processed

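Total RNA was extracted with the PicoPure kit and 2 ng labelled by the Affymetrix WT Pico method, per the labels' protocols. The authors deposited log2 values for 41345 probe sets on 13 arrays; the submitters' processing notes name RMA and Partek 6.6, with further steps not given in the sources used here. Background left after RMA compresses differences of dim probe sets. Symbols came from the platform annotation: 23521 probe sets had 1 symbol and were used, and 1814 with several and 16010 with none were left out. limma 3.58.1 (R 4.3.3) was fitted to all 22180 genes and 13 arrays at once, without covariates, two-sided, with Benjamini-Hochberg adjustment over all genes at 0.05 after a check on simulated data. The members and lists were chosen with earlier results of these data known. Named members were those with the 6 lowest p per direction and comparison, the 5 highest means of Snord and of Snora, all Scarna genes, and members sharing a host with 3 or more, plus others chosen after their values were seen (Snora68, Snora31 and Snora62's spread among them). Hosts were assigned by position in the RefSeq table of GRCm38.p6, which gives no strand. Sequences of the small nucleolar RNAs themselves were not used here. Alternatives covered the arrays and genes tested, weights, blocks, normalization, moderation and leaving out arrays. The number of arrays limits the precision.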

Additional observations from a re-analysis of the deposited data

Results flagged for a closer look

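Over 39 items in 3 groups each, 117 sets of array values were checked for an array far from the others by Dixon's ratio of gap to range, which chance alone passes in about 1 of 20, and 10 passed. In control arrays these were Snora21, high in array 3 at 8.87 against 7.39 for the next (ratio 0.841), Snord37, high in array 4 at 2.05 (0.866), and the median of the Snora genes, low in array 4 at 4.57 (0.842). In LPS arrays, Snord123 was low in array 1 at 4.49 against 7.34 (0.912), Snord35a low in array 4 at 3.12 (0.855), Snord37 high in array 2 at 2.12 (0.862), and Snord49a high in array 2 at 4.92 against 3.29 (0.847). In LPS/LPS arrays, array 5 stood apart each time: Snord49a was low at 3.10 against 5.50 (0.735), Snord8 high at 7.09 against 6.89 (0.849), and the median of all members high at 3.92 against 3.77 (0.711). LPS/LPS array 5 is also the array with the highest median of olfactory receptor genes, 3.23; the part of that in these values was not tested.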

How the results depend on the processing

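Depth of evidence was limited by 4 or 5 arrays a group and by dim signal, since 49 of 78 members lay below the background reference. Genes called over the whole table for LPS against control numbered 0 in the fit as reported, 30 with array weights, 3 with a replicate block, 3 among genes above the reference, 7 after quantile normalization, and 0 to 24 with 1 array left out (24 without LPS array 1, 5 without LPS array 3, 3 without LPS/LPS array 1, 1 without control array 4 or LPS/LPS array 5). For LPS/LPS against control the reported 2 became 0 with only both groups compared, a replicate block, all probe sets, no moderation, or without LPS array 4 and LPS/LPS array 5 together, 4 with array spread as a block or quantile normalization, 1 with arrays centred on their medians, and 0 to 3 with 1 array left out, every array but LPS/LPS array 2 moving it. For LPS/LPS against LPS the reported 14 became 2 with only both groups compared, 41 with weights, 4 with a replicate block, 7 over all probe sets, 0 with no moderation, 1 without both arrays, and 5 to 96 with 1 array left out (96 without LPS array 1, 5 without LPS/LPS array 2, 3 or 5, 6 without LPS array 4 or control array 4, 7 without control array 3 or LPS/LPS array 4).

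Members called for LPS against control were 0, but 1 with weights, a replicate block or quantile normalization, and 0 to 1 with 1 array left out (1 without LPS array 1, LPS array 3 or LPS/LPS array 1). For LPS/LPS against LPS, 1 was called, but 0 with only both groups compared, all probe sets, only genes above the reference (which leaves out Snord19), no moderation, or without both arrays, and 0 to 2 with 1 array left out (2 without control array 2, 0 without LPS/LPS array 2 or 5). The labels state no pairing by replicate number. Deviations of same-numbered arrays correlated at -0.351 to 0.215, and those of differently numbered arrays at -0.329 to 0.544. With so few arrays these correlations cannot settle whether arrays were paired. The replicate block changed no other call on members, and with it the Snora median for LPS/LPS against LPS was -0.38. Other tested settings gave the counts of members as reported.

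Medians moved by more than their spread between arrays in these cases. Only genes above the reference gave, for LPS against control, 0.38 for Snord and 0.29 for all members, for LPS/LPS against control -0.17 for all members, and for LPS/LPS against LPS -0.52 for Snord and -0.51 for all members. Narrow arrays gave -0.30 for Snora and -0.12 for all members in LPS against control, and -0.020 for all members in LPS/LPS against LPS. Wide arrays gave 0.17 for Snora in LPS/LPS against control. Leaving out 1 array gave 0.034 to 0.18 for all members in LPS against control, the lowest without LPS array 4, and 0.034 came also without both arrays. Other moves of over 1.5 times, within that spread, came with 1 array left out for LPS against control (Snora 0.12 to 0.36, Scarna 0.046 to 0.38, Snord -0.035 to 0.050), for LPS/LPS against control (Snora -0.21 to -0.068, Scarna -0.25 to 0.18, Snord 0.0021 to 0.072, all members -0.053 to 0.013) and for LPS/LPS against LPS (all members -0.24 without LPS array 1 to -0.11, Snora -0.41 to -0.20, Scarna -0.64 to 0.021, Snord -0.11 to 0.043), and wide arrays gave -0.050 for all members in the latter. Among the differences named, signs turned for Snord85 in narrow arrays (LPS against control, 0.066), in wide arrays for Snora30 (0.043) and Snord37 (-0.16; both LPS/LPS against control), for Snord19 (LPS/LPS against control, 0.04 as reported) in wide arrays (-0.13) and with 1 array left out (-0.023 to 0.15; below 0 without control array 2 or LPS/LPS array 3 or 4), and, for LPS/LPS against LPS, for Snord123 (0.067) and Snord69 (0.59) in narrow arrays, Snord65 (-0.27) and Snord89 (0.075) in wide arrays, and Snord35a with the spread block (-0.026), in wide arrays (-0.023), without LPS array 4 (-0.095) and without both arrays (-0.084). Snord69 in LPS against control also turned negative within narrow arrays. The causes were not tested. Leaving out both arrays was chosen after seeing the data.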

Other observations

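The 46 probe sets that carry a small nucleolar RNA symbol together with others were not members, since their signal cannot be assigned. In a fit over all 41345 probe sets limma called 0 of the 46. Over all probe sets it called 0 for LPS against control, 0 for LPS/LPS against control and 7 for LPS/LPS against LPS. The 0 calls are thus near the background. Of them, 16 carry Snord116 and hold identical values. The Rpl13a introns give Snord32a, Snord33, Snord34 and Snord35a. LPS minus control was 0.49 for the probe set of Snord32a with Rpl13a, 0.50 for that of Snord34 with Rpl13a, -0.34 for that of Snord33 with Rpl13a and Mir5121, and 0.32 for the member Snord35a. Against LPS, LPS/LPS differed by -0.04, -0.52, 0.02 and 0.10 for them. The largest difference between LPS/LPS and LPS among all 46 was -4.22 for a probe set of Snora17 with Snhg7 (SE 1.43, limma adjusted p = 0.619), while a second probe set with the same symbols gave -1.30 (SE 1.16). Snora81 with Eif4a2 gave -2.35 (SE 0.97, adjusted p = 0.684).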
